A study of Mus musculus with 4 samples.

Results

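Regions of open chromatin at the ends of more than 1 gene were described in mouse DN3 thymocytes, the CD4/CD8 double-negative precursors that rearrange the T cell receptor beta gene. Peaks of 4 ATAC-seq lists (chromosomes 1 to 19, X and Y) were merged into regions wherever they overlapped by at least 1 bp. A region was selected when it held a peak from all 4 lists and its summit lay within 1000 bp of a start or end of at least 2 protein-coding genes. The summit was that of the region's peak with the highest fold enrichment. This gave 1367 regions out of 16761 called in all 4 lists, which are called shared regions here, and out of 36224 merged regions in all. These regions were thus chosen by the calls and by the folds that place the summit, and their presence in every list is a description and not a finding. Of the other shared regions, 6671 lay at the end of a single gene and 8723 at none, and these served for comparison.

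ATAC-seq maps accessible DNA by letting a transposase insert adapters into it. The DN3 cells came from wild-type mouse thymus, were isolated by flow sorting, and were then passed over magnetic beads after labelling with a biotinylated antibody to the adhesion molecule EpCAM. Retained cells made up the EpCAM-positive fraction and cells that flowed through the EpCAM-negative fraction, with 2 libraries each, numbered 1 and 2. No other treatment or allele is named. The labels do not say whether the libraries came from separate mice, so their spread may be technical. Lists held 24598 to 29030 peaks, and the lowest −log10 q in a list was 2.02 to 2.07 in the EpCAM-positive fraction and 1.32 to 1.34 in the EpCAM-negative fraction. Depth in reads is not known. Of 13 DN3 markers, 6 had a shared region at a gene end and 7 had none there (Ptcra, Rag1, Rag2, Tcf7, Gata3, Lck and Dntt). The same held for 1 of 4 markers of earlier progenitors, 1 of 5 of B cells, 0 of 5 of myeloid cells, 1 of 7 of thymic epithelium, 0 of 4 of NK cells and 0 of 4 of erythroid cells.

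Genes whose starts face away from each other across a short stretch of DNA form a head-to-head pair, and the stretch between them is a bidirectional promoter. Such promoters are usually rich in CpG dinucleotides, mostly lack a TATA box, and are common among genes that every cell needs, such as those of DNA repair and mitochondrial translation. In a head-to-tail pair the end of one gene lies next to the start of another on the same strand, and in a tail-to-tail pair 2 transcripts end towards each other.

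The bases between the starts of 6 head-to-head pairs are shown first, because the open region in each case covered the DNA that separates the genes. They come from the RefSeq promoter sequences of GRCm38.p6 (mm10). Capitals mark exact matches, on either strand, to short motifs that transcription factors are known to bind, which are named further on.
Mrps12/Sars2, chr7:28741822-28741956, plus strand: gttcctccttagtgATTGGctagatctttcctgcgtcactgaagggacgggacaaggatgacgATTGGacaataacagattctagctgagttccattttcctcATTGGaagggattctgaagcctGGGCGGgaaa
Atm/Npat, chr9:53536829-53536888, plus strand: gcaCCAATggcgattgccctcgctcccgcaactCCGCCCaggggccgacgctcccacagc
Psmb9/Tap1, chr17:34187331-34187555, plus strand: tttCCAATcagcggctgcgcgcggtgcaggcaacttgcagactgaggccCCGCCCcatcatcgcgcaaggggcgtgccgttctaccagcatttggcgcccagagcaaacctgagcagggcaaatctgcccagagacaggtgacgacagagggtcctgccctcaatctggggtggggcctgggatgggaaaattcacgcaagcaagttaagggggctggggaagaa
Brca1/Nbr1, chr11:101551956-101552106, plus strand: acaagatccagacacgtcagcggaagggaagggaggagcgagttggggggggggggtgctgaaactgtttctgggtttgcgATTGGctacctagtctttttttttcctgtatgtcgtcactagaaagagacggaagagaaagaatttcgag
Larp7/Zgrf1, chr3:127553350-127553395, plus strand: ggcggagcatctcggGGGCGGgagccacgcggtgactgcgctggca
Smim7/Tmem38a, chr8:72571049-72571188, plus strand: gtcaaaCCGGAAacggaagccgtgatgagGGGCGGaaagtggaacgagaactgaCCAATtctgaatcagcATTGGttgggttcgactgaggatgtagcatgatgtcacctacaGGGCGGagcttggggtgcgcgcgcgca
Mrps12 encodes a mitochondrial ribosomal protein and Sars2 the mitochondrial seryl-tRNA synthetase. Atm encodes the kinase that signals DNA double-strand breaks, and Npat a coactivator of histone genes. Tap1 and Psmb9 encode a peptide transporter and an immunoproteasome subunit of antigen presentation. Brca1 acts in homologous recombination and Nbr1 in selective autophagy. Larp7 binds the 7SK RNA, Zgrf1 is a helicase of DNA repair, and Tmem38a is a cation channel of the endoplasmic reticulum. The last 2 pairs were among the strongest regions of the head-to-head class.

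Most of the regions stood at head-to-head pairs. Strand was taken from the RefSeq promoter table, which held it for 17491 of 21883 protein-coding genes (79.9%), and 1013 regions had exactly 2 genes that both had a strand. Of these, 764 were head-to-head (75.4%, exact Clopper-Pearson 95% interval 72.6 to 78.0), 203 were head-to-tail (20.04%, 17.6 to 22.6) and 6 were tail-to-tail (0.592%, 0.218 to 1.28). A further 19 held starts of 2 genes on the same strand, 20 a start and an end on opposite strands, and 1 the ends of 2 genes on the same strand. The remaining regions had 3 genes (29) or lacked a strand for a gene (325). Intervals here cover counting error only. In 131 of the 1367 regions (9.58%) a gene carried the name of a gene model, and in 416 the genes overlapped each other.

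The regions held the ends of 2666 genes, 12.2% of the protein-coding genes and 29.5% of the 9026 genes with any shared region at an end. The second-nearest gene lay a median of 234 bp from the summit, and 76.5% of regions had it within 500 bp. The limit of 1000 bp cut through a continuous range of distances. Just inside it were Gtf2a2/Bnip2 and Ncoa3/LOC115489489, each with the second gene at 998 bp. Just outside were Ubap2l/4933434E20Rik at 1001 bp and Ninj2/B4galnt3 at 1008 bp. The folds of the peaks on the 2 sides overlapped, from 11.7 to 16.4 inside and from 5.85 to 21.5 outside.

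The count can also be read from the gene pairs. Of 903 annotated head-to-head pairs with starts within 1000 bp of each other, 775 had a shared region (85.8%, 83.4 to 88.0), 49 had a region called in 1 to 3 lists, and 79 had none. Among 509 head-to-tail pairs with the end of one gene within 1000 bp of the start of the next, 206 had a shared region (40.5%, 36.2 to 44.9). Among 725 tail-to-tail pairs, 9 did (1.24%, 0.569 to 2.34). The 3 intervals did not overlap. Calls were also shared more often where more gene ends were near. Of all 1651 merged regions at the ends of 2 or more genes, 82.8% (80.9 to 84.6) were called in all 4 lists, against 68.2% of 9780 regions at 1 gene and 35.2% of 24793 at none.

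**Figure D1:**
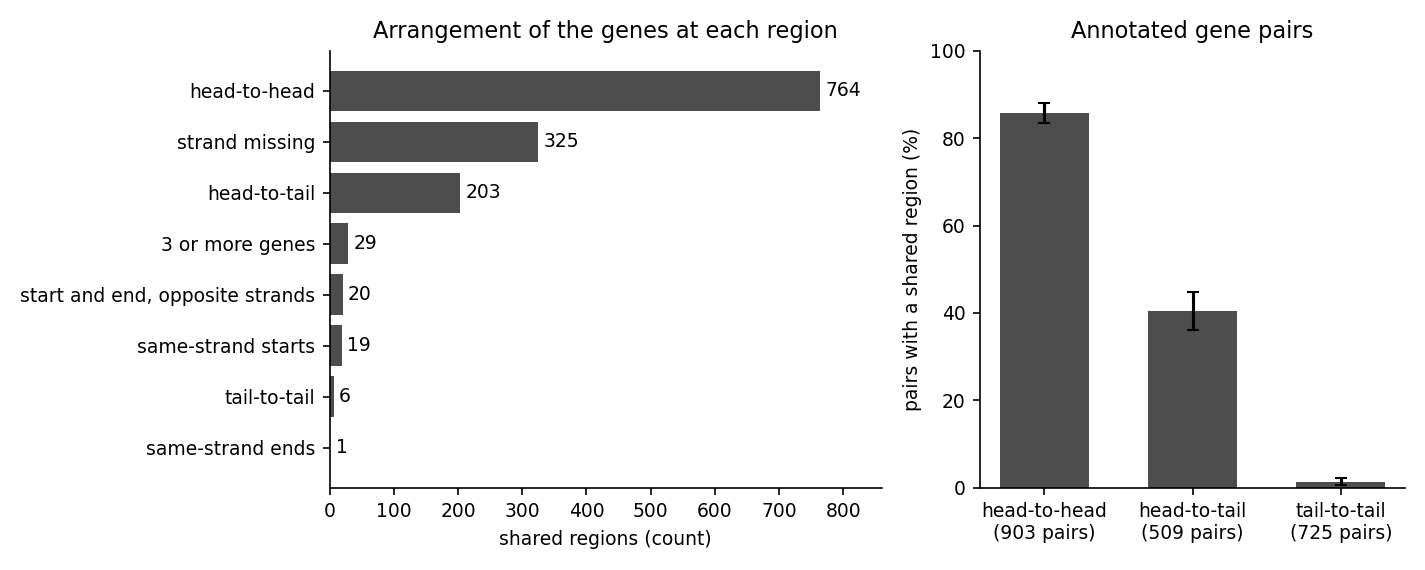
Left, the number of shared regions in each arrangement of the genes at their summit (1367 in all), where head-to-head regions are the most numerous at 764. Right, the share in percent of annotated gene pairs within 1000 bp that had a shared region, with exact 95% intervals as error bars: 85.8% of head-to-head, 40.5% of head-to-tail and 1.24% of tail-to-tail pairs.

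Regions at head-to-head pairs were wider than those at the start of a single gene. The median of the widest peak per region was 808 and 754 bp in the EpCAM-positive lists and 710 and 646 bp in the EpCAM-negative lists. At starts of single genes it was 677 and 625 bp, and 575 and 539 bp. The difference was 125 ± 12.7 bp (mean and SD of the 4 lists) and had the same sign in 4 of 4, with a two-sided exact sign-flip permutation p of 0.13, the smallest that 4 lists allow. Regions at head-to-tail pairs were not wider than single starts, with medians of 654 and 615 bp in the EpCAM-positive lists, against 555 and 534 bp in the EpCAM-negative ones. Their difference from single starts was -14.5 ± 8.43 bp (exact sign-flip permutation p = 0.13, lower in 4 of 4 lists). Taken over the merged region, the median width was 880 bp at head-to-head pairs, 730 bp at head-to-tail pairs, 588 bp at the 6 tail-to-tail regions, 766 bp at single starts, 590 bp at single transcript ends and 604 bp away from gene ends.

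Head-to-head pairs also ranked above single starts and head-to-tail pairs in peak strength. For each list, the 16761 shared regions were ranked by the highest fold of their peaks, and the rank was written as a percentile. The fold is the authors' value for each peak, so it was compared within a list only, and the percentiles of the 4 lists rest on the same regions. The median percentile at head-to-head pairs was 74.2 and 73.4 in the EpCAM-positive lists, against 75.3 and 74.2 in the EpCAM-negative ones. Single starts had medians of 64.0 and 63.2, and of 63.0 and 61.7. The difference was 11.3 ± 1.27 points, higher in 4 of 4 lists (exact sign-flip permutation p = 0.13). Head-to-tail pairs had medians of 61.0, 59.9, 59.7 and 56.9, a difference from single starts of -3.58 ± 0.789 points, lower in 4 of 4 lists (exact sign-flip permutation p = 0.13).

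Over all 1367 regions, the median region width was 835 bp, 1.10 times that of regions at single gene ends (758 bp), and the median percentile averaged 70.4 over the 4 lists. Widths were also set side by side within 4 bands of equal percentile range. Of the 1367 regions, 42.3% fell in the top band. From the lowest to the highest band, the median width at head-to-head pairs was 1.03, 1.15, 1.12 and 1.11 times that at starts of single genes. In 25.7% of the 1367 regions at least 1 list had 2 peaks or more, against 25.4% of regions at single gene ends and 18.8% away from gene ends. The 4 lists placed the summit within a median span of 75 bp, against 84 bp at single gene ends and 98 bp away from them.

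**Figure D2:**
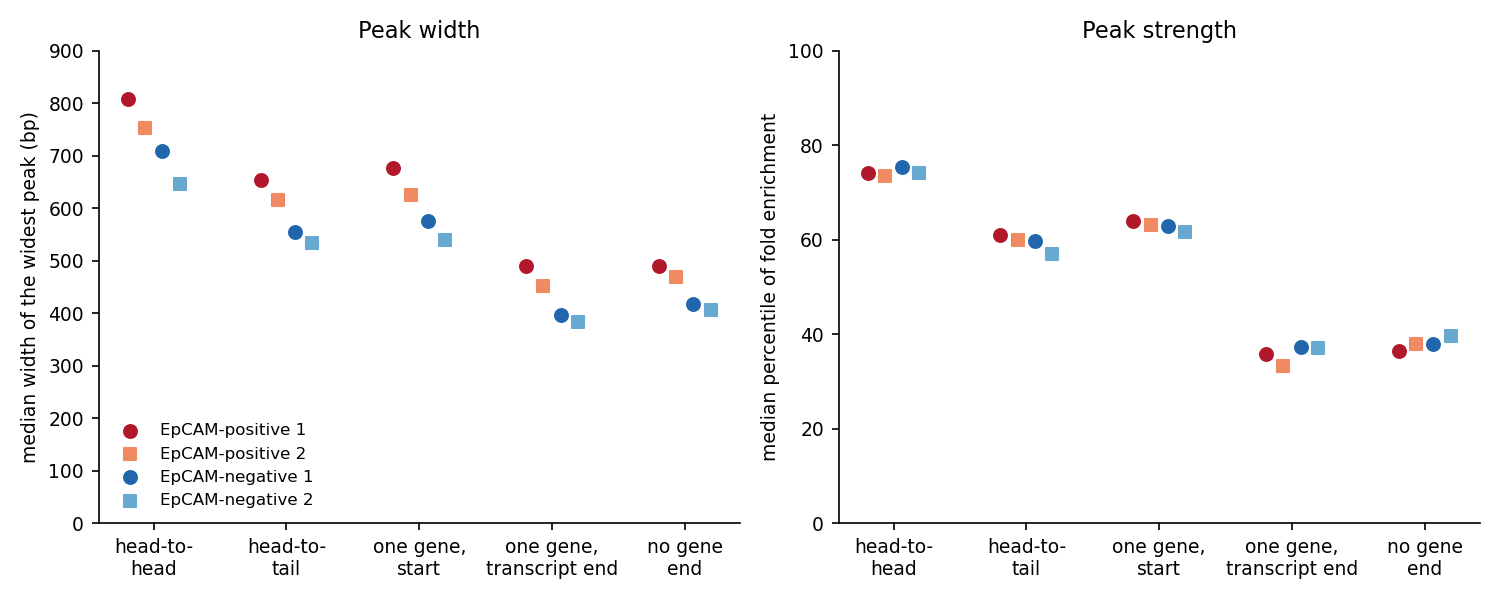
Median width in bp of the widest peak (left) and median percentile of fold enrichment among the shared regions (right) for 5 sets of shared regions, with 1 point per library and no error bars. In every library the head-to-head point lies above the other 4 sets in both panels, and head-to-tail regions lie close to starts of single genes.

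The position of the summit relative to the middle of the starts differed with the distance between them. In 507 head-to-head regions the starts lay apart, by a median of 98 bp (quartiles 45 and 212 bp), and in 257 the genes overlapped, by a median of 236 bp. The summit fell between the starts in only 23.9% and 27.6% of the 507 regions in the EpCAM-positive lists and in 24.9% and 27.0% in the EpCAM-negative lists. Where the starts were 1 to 100 bp apart (260 regions), it lay a median of 154 and 141 bp from the middle of the starts in the EpCAM-positive lists and 150 and 134 bp in the EpCAM-negative lists. In these regions 11.9% to 18.5% of summits, depending on the list, were within 75 bp of the middle. Where the starts were 201 to 400 bp apart (97 regions), 50.5% to 61.9% were. An overlap of 200 to 400 bp (67 regions) gave a similar range, 49.3% to 56.7%. An overlap under 200 bp (111 regions) gave 19.8% to 23.4%. With starts 1 to 100 bp apart, then, the highest peak mostly stood to one side of the middle. Shares within 75 bp were also low at 101 to 200 bp (15.7% to 29.6%), over 400 bp (14.3% to 28.6%) and at an overlap over 400 bp (15.2% to 22.8%). The median distance from the summit to the nearer start was 115.5 to 124.5 bp at 1 to 100 bp and 100 to 109 bp at 201 to 400 bp. It thus differed little between these classes, and was 51 to 74 bp at 101 to 200 bp. These spacing classes were set after the plot of summits had been seen. Width differed less with spacing, with median region widths of 882 bp for overlapping starts, 840 bp at 1 to 100 bp, 917 bp at 101 to 200 bp, 896 bp at 201 to 400 bp and 976 bp at 401 to 1000 bp.

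**Figure D3:**
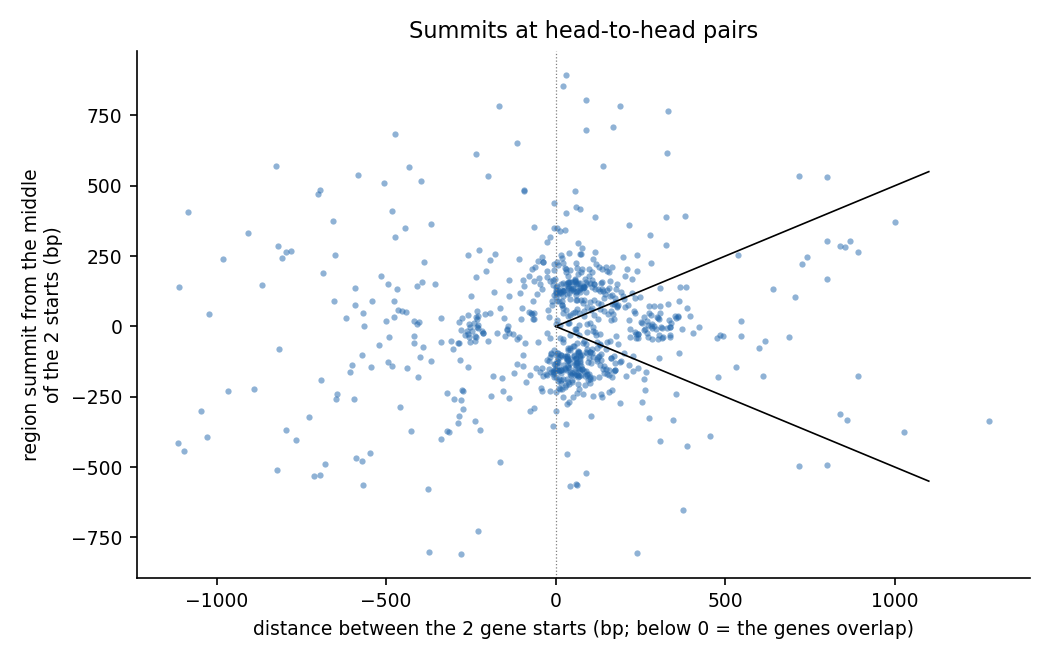
Each point is 1 of the 764 head-to-head regions. The horizontal axis gives the distance between the starts in bp (negative where the genes overlap), the vertical axis the region's summit relative to the middle of the starts in bp, and the solid lines the 2 starts themselves where they lie apart. For starts 1 to 100 bp apart the points form 2 bands above and below the middle, and at 201 to 400 bp they gather around it.

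The strongest head-to-head region was that of Larp7/Zgrf1 (chromosome 3, 127552971 to 127553669), whose starts are 47 bp apart. Its fold was 27.6 and 26.2 in the EpCAM-positive lists, against 27.8 and 28.0 in the EpCAM-negative ones, and its percentile was at least 99.8 in each. Next came BC005624/Usp20, Smim7/Tmem38a, Hacl1/Btd and 1110032A03Rik/Fdxacb1, with lowest percentiles from 99.3 to 99.7. Usp20 encodes a deubiquitinase and Btd biotinidase. Among head-to-tail regions, the strongest were at Pheta2/Smdt1, Rccd1/Unc45a, Ppfia3/Lin7b, Ajm1/Phpt1 and Rpl4/Snapc5. Smdt1 encodes a subunit of the mitochondrial calcium uniporter, Rpl4 a ribosomal protein and Snapc5 a subunit of a complex that activates transcription of small nuclear RNA genes. At Pheta2/Smdt1 (chromosome 15, 82345836 to 82346368) the fold was 23.8 and 24.9 against 25.8 and 25.7. The tail-to-tail regions were weaker. The strongest of them, at Fam166b/Rusc2, had percentiles of 88.9 and 79.4 in the EpCAM-positive lists, against 79.8 and 92.2 in the EpCAM-negative ones, and that of Srebf1/Rai1 had 26.0 and 51.5, and 68.3 and 43.4.

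Regions with starts on the same strand were led by Xntrpc/Xndc1, Adat3/Scamp4, Htd2/Rpp14, Haus3/Poln and LOC115489044/Zfand5. In these the lowest percentile was 83.7. Regions with 3 genes were led by Wdr74/1700092M07Rik/Stx5a, Smim27/Topors/Ndufb6, Rfxank/Gm45929/Borcs8 and LOC115486880/Rspry1/Psme3ip1. At the first (chromosome 19, 8741230 to 8742025) the fold was 24.1 and 24.4 in the EpCAM-positive lists, against 24.9 and 24.4 in the EpCAM-negative ones. Wdr74 acts in ribosome assembly and Stx5a in vesicle transport at the Golgi apparatus. Gm45929 and Borcs8 also have the same start.

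The widest region was 2422 bp long and lay at 2 gene models, LOC108167694/Gm20783. It was weak by fold, with percentiles of 6.01 to 21.3, though its −log10 q was 73.8 to 89.0. It was followed by Hnrnpa2b1/Cbx3 with 1930 bp (chromosome 6, 51469092 to 51471021) and Enoph1/Hnrnpdl with 1832 bp. Hnrnpa2b1 encodes an RNA-binding protein and Cbx3 a heterochromatin protein, and the DNA between them is known from human cells as a ubiquitous chromatin opening element. The Hnrnpa2b1/Cbx3 region was of middling strength, with percentiles of 55.9 and 41.1, and of 52.7 and 63.2. The narrowest regions were those of Ddx25/Pus3 with 258 bp, Pnpla7/Nsmf with 260 bp and Tpp1/Dchs1 with 279 bp, and their percentiles ran from 3.06 to 42.9.

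Most pairs of a list drawn up as known head-to-head pairs were in the set. Of 36 genes that form 18 listed pairs, 28 were at 14 regions of the set, and both genes of the pair were present at each. Strand was given for 11 of these regions, and each was head-to-head. Mrps12/Sars2 (chromosome 7, 28741573 to 28742296) had a fold of 22.1 and 22.6 in the EpCAM-positive lists, against 21.1 and 21.5 in the EpCAM-negative ones. Atm/Npat (chromosome 9, 53536409 to 53537406) had 19.5 and 20.2 against 20.3 and 22.3. Both pairs were above the 97th percentile in every list. The purine synthesis genes Paics/Ppat had percentiles of 95.02 to 99.0. Psmb9/Tap1 had 89.9 to 95.7, and Mcm4/Prkdc, a replicative helicase subunit and the DNA-dependent protein kinase, had 84.1 to 94.9. Ung/Alkbh2 (74.9 to 91.5) also lay in the upper part. The chaperonin genes Hspe1/Hspd1 had 59.7 and 68.3 in the EpCAM-positive lists, against 71.0 and 88.5 in the EpCAM-negative ones. Tmem258/Fen1 (59.0 to 69.4) and Brca1/Nbr1 (56.7 to 66.8) were in the middle. The lowest were Gart/Son (34.7 to 46.3), Tsc2/Nthl1 (24.6 to 57.5) and Surf2/Surf1 (10.7 to 22.7), so pairs of the same arrangement spanned nearly the whole range of strength. The CD3 chain genes Cd3d and Cd3g, which are named here after their values had been seen, each had a shared region at its own end and none that took in both. Of the other listed pairs outside the set, the same held for Acat2/Tcp1. Trp53/Wrap53 and Col4a1/Col4a2 had no shared region at an end. The arrangement of the listed pairs outside the set was not checked, so not all 18 need be head-to-head.

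Other gene groups differed in how often they used such regions. Over all protein-coding genes the share was 12.2%. Mitochondrial ribosomal proteins had 36 of 78 genes (46.2%), respiratory chain genes 41 of 96 (42.7%), histone genes 32 of 76 (42.1%), DNA repair genes 27 of 66 (40.9%) and splicing genes 18 of 48 (37.5%). DNA replication genes had 12 of 43 (27.9%), antigen processing genes 5 of 20, proteasome genes 12 of 51 (23.5%; the list goes by symbol and takes in Psme3ip1, which is no subunit) and cytosolic ribosomal proteins 18 of 100. Zinc finger genes named Zfp had 36 of 397 (9.07%) and olfactory receptors 0 of 1110. These shares also rest on how many genes of a list had any shared region at an end. Among the genes that had one, the share was 29.5% over all genes, 54.5% for mitochondrial ribosomal proteins, 59.3% for histones, 50.6% for the respiratory chain, 47.4% for DNA repair, 22.2% for ribosomal proteins and 14.9% for Zfp genes. It was 38.3% for splicing, 30% for DNA replication, 31.25% for antigen processing and 27.9% for the proteasome. DNA replication, antigen processing and proteasome genes were thus near the share over all genes. These counts were not tested.

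T cell genes were nearly absent. Of 50 genes of T cell receptor signalling, 31 had a shared region at the end of that gene alone and 1, Lat, had one at the ends of 2 genes. Of 57 genes of the double-negative stages, 24 had a region at the end of that gene alone and 0 were in the set. The lists of other cell types gave 0 as well, of 10 B cell, 13 myeloid, 12 thymic epithelial, 8 NK and 8 erythroid genes. Lat encodes the membrane adaptor that links the activated receptor to its signalling complex. Its start lay 11 bp from the summit of a region (chromosome 7, 126369209 to 126369907), and 344 bp away, upstream on the same strand, was the end of Spns1, a lysosomal transporter. Lat spans 126363827 to 126369705 and Spns1 126370060 to 126377934, so the summit was outside both genes. Exons and introns were not annotated here.

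**Figure D4:**
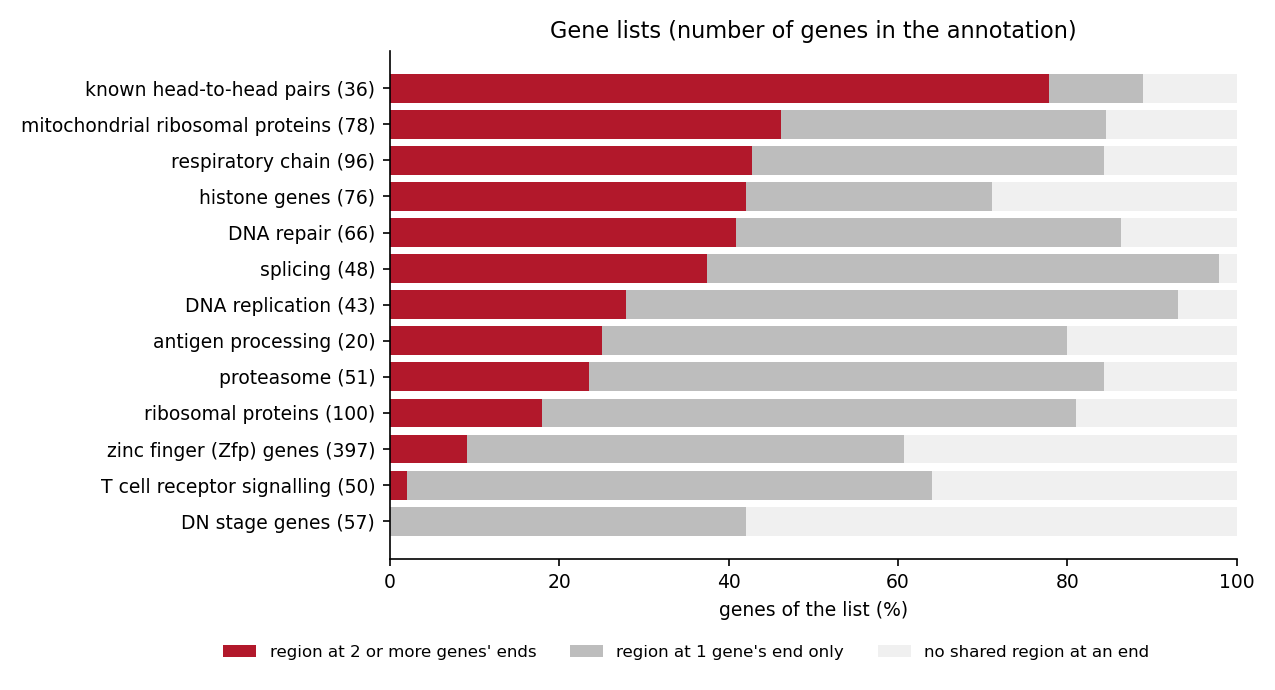
Share in percent of the genes of each list that had a shared region at the ends of 2 or more genes (red), at 1 gene's end only (grey) or at neither (pale), with the number of genes in brackets. Lists with at least 20 genes are shown, olfactory receptors excepted. Known head-to-head pairs, mitochondrial ribosomal proteins and the respiratory chain have the longest red bars, and T cell lists the shortest.

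Within these groups the strongest regions were spread over many functions. Among DNA repair genes, Mre11a, which processes broken DNA ends, shared a region with Ankrd49 (percentiles 96.2 and 98.4 in the EpCAM-positive lists, against 99.4 and 98.6 in the EpCAM-negative ones). For replication, Orc6 of the origin recognition complex shared one with Vps35 (99.3, 99.0, 99.4 and 99.4) and the polymerase epsilon subunit gene Pole2 one with Klhdc1 (99.2 and 95.01, 94.6 and 98.2). Hnrnpc/Rpgrip1, BC024978/Snrpa and Rmi1/Hnrnpk led the splicing list, with percentiles of 88.6 to 99.0. Mrpl54/Apba3, which joins a mitochondrial ribosomal protein and an adaptor, had a fold of 24.9 and 27.8 against 26.3 and 28.9, among the highest of the set. In the respiratory chain, Uqcr10/Zmat5 and Atp5pb/Wdr77 had percentiles of 83.9 to 96.4. Histone genes stood apart in that 16 of their 17 regions had both genes from the list, and in their lower strength. The median of the mean percentile was 43.6, against 65.7 for mitochondrial ribosomal proteins, 76.6 for DNA repair and 81.3 for DNA replication. The strongest histone region was that of H2ac6/H2bc4 (79.2 and 68.0, and 79.7 and 83.3). Histone genes are near copies of each other, so the alignment of their reads may be ambiguous, which was not tested.

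The promoters were compared by base composition and motifs. Of the promoter entries within 1000 bp of a summit, 1419 were at head-to-head regions, 194 at head-to-tail regions and 5015 at starts of single genes, and each covers 250 bases before and 50 after a start. The 2 windows of a pair share bases, so they are not independent. The median number of CpG per 100 bases was 8.33 at head-to-head starts, 6.67 at head-to-tail starts, 7.67 at single starts and 4.33 over all 17491 promoters. In the 150 bases nearest the start (100 before and 50 after), head-to-head and single starts both had 9.33, and head-to-tail starts 8.67. The ETS motif CCGGAA was in 45.2% of head-to-head, 39.2% of head-to-tail and 31.4% of single starts, against 19.1% of all promoters. In the 150 bases nearest the start the shares were 33.8%, 33.5% and 23.1%, against 13.8%, so head-to-head and head-to-tail starts were then nearly level. ETS factors, such as GABP, bind this core. The YY1 motif AAGATGGCG was in 5.99%, 2.06% and 3.77%, against 1.92% of all. The TATA box letters TATAAA were in 4.37%, 6.19% and 6.18%, against 13.3% of all. In the 150 bases nearest the start, YY1 was in 3.81%, 2.06% and 3.37%, against 1.54%. TATAAA was there in 2.18%, 2.06% and 2.37%, against 7.24%. For both, head-to-head and single starts were then nearly level.

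For the letters CCAAT, bound by NFY, the shares were nearly level at 40.7%, 45.4% and 41.1%, against 39.2% of all promoters. The SP/KLF letters GGGCGG were in 69.4%, 72.2% and 71.9%, against 46.3%. In the 150 bases nearest the start they were in 53.6%, 63.4% and 62.3%, against 38.8%, so head-to-head starts were then lower. NRF1 (GCGCATGCG) was in 4.44%, 6.70% and 4.87%, against 2.41%. The CRE letters TGACGTCA were in 4.16%, 4.64% and 4.29%, against 2.33%. The letters ACTACAA, of the kind bound by ZNF143, were in 6.62%, 4.64% and 4.47%, against 3.82%. RUNX factors and E-box proteins have a part in T cell development. RUNX (TGTGGT) was in 8.95%, 11.9% and 12.1%, against 15.1% of all, and the E-box CAGCTG was in 11.1%, 16.5% and 14.1%, against 15.1%. Counted per region, with a match in any of its promoters (a count added after seeing the data), head-to-head regions were not below single starts, at 13.0% against 12.1% for RUNX and 16.3% against 14.1% for the E-box. Head-to-head regions have 2 windows to match in, so more bases were searched in them than at single starts. Both strands were searched, and different motifs overlapped each other in 2.40% of the head-to-head promoters. In the sequences shown above, CCAAT or its reverse complement appears in all but that of Larp7/Zgrf1, and 3 times between Mrps12 and Sars2, and CCGGAA once, between Smim7 and Tmem38a. These shares describe letters in the reference and were not tested.

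The 2 fractions were set well apart at few of these regions, and the same was true of all shared regions. A region was counted as higher in a fraction when both of its libraries exceeded both libraries of the other by at least 10 percentile points. This held for 57 of 1367 regions higher in the EpCAM-positive fraction (4.17%; over all shared regions 5.86%) and for 37 lower (2.71%; over all shared regions 6.09%). At regions of single gene ends the shares were 5.58% and 3.57%, and away from gene ends 6.35% and 8.55%. Without a minimum gap, the percentiles of the fractions did not overlap in 241 regions that were higher (17.6%; over all shared regions 19.1%) and 251 that were lower (18.4%; over all shared regions 20.7%). At a gap of 20 points there were 16 higher regions (1.17%; over all shared regions 1.65%) and 0 lower ones (over all shared regions 1.76%). With 2 libraries against 2 no single region can pass a test, since a two-sided exact permutation test then cannot go below p = 0.333. Strong regions were seldom counted in any set. In the top band of percentiles, which held 42.3% of the set, the shares were 1.56% higher and 1.73% lower, against 1.61% and 1.90% of all shared regions. In the second band from below they were 6.61% and 1.95%, against 9.46% and 9.44%.

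Peaks were wider in the EpCAM-positive lists, and not at these regions in particular. The median of the widest peak was 762 and 708 bp in the EpCAM-positive lists, against 660 and 612 bp in the EpCAM-negative ones, so the groups did not overlap. The ratio of the means was 1.16 (735 ± 38.2 against 636 ± 33.9 bp, SD, n = 2 each, exact permutation p = 0.333). At single gene ends it was 1.18. The lowest −log10 q listed also differed between the fractions, as given above, and its part in the widths was not tested. The bases covered by 2 lists over those covered by either (the Jaccard index) were 0.837 and 0.814 within the fractions and 0.779 to 0.816 between them. At single gene ends the values were 0.806 and 0.774 within and 0.739 to 0.785 between.

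With all 4 libraries, the largest gap was at Cdca8/9930104L06Rik (chromosome 4, 124936630 to 124937406), whose starts are 67 bp apart. It stayed the largest of the named gaps without EpCAM-positive replicate 1. Without EpCAM-positive replicate 2 the gap at Ttc36/Tmem25 was larger (45.6 against 40.9 points), without EpCAM-negative replicate 1 that at Lrrc46/Mrpl10 (39.9 against 38.8) and without EpCAM-negative replicate 2 that at Eif2b1/Gtf2h3 (35.8 against 33.5). Cdca8 encodes borealin, a subunit of the chromosomal passenger complex that guides chromosomes in mitosis. Its percentile was 84.3 and 77.8 in the EpCAM-positive lists, against 42.2 and 36.5 in the EpCAM-negative ones, and the fold was 14.0 and 13.6 against 8.79 and 8.33. Both EpCAM-positive libraries were high and both EpCAM-negative libraries below the median region. The summit lay inside 9930104L06Rik, 188 bp from the start of Cdca8. The bases between the starts hold CCAAT on 2 occasions, and are shown with those of a pair that differed the other way. Both were chosen for display after their values had been seen.
Cdca8/9930104L06Rik, chr4:124936918-124936983, plus strand: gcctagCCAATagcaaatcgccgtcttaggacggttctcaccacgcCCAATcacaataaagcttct
Moap1/Tmem251, chr12:102743662-102743718, plus strand: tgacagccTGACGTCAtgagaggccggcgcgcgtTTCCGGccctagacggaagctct
Eif2b1/Gtf2h3 joins a subunit of the translation factor eIF2B and one of the transcription factor TFIIH. It had percentiles of 55.8 and 47.9 in the EpCAM-positive lists, against 12.2 and 22.1 in the EpCAM-negative ones. Lrrc46/Mrpl10 had 58.5 and 56.8 against 29.1 and 16.1. Both were low in the EpCAM-negative libraries and near the median region in the EpCAM-positive ones. Morn2/Dhx57 had 45.2 and 49.6 against 19.03 and 18.7. Coq4/Trub2, 2 genes of mitochondrial function (coenzyme Q synthesis and RNA pseudouridylation), had 63.8 and 58.5 against 33.6 and 30.2. Ttc36/Tmem25 had 54.4 and 33.0 against 5.48 and 9.00, with EpCAM-positive replicate 2 well below replicate 1.

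The regions lower in the EpCAM-positive fraction had smaller gaps. At Nadsyn1/Dhcr7 (chromosome 7, 143822565 to 143823312) the percentile was 43.7 and 41.8 in the EpCAM-positive lists, against 78.5 and 63.6 in the EpCAM-negative ones. Dhcr7 encodes the enzyme of the last step of cholesterol synthesis and Nadsyn1 that of NAD synthesis. Ap1b1/Nefh, a clathrin adaptor and a neurofilament gene, had 55.5 and 51.3 against 77.7 and 75.4. Moap1/Tmem251 had 47.5 and 45.3 against 67.4 and 67.4. Moap1 binds the apoptosis regulator BAX. The bases between the starts of this pair hold both the CRE letters and those of ETS. Car11/Dbp had 11.9 and 16.8 against 43.2 and 36.4, and Dbp encodes a transcription factor with daily rhythm. At this head-to-tail region the summit was 76 bp before the start of Dbp and 337 bp past the end of Car11. Trim28/Gm31649 had 63.1 and 54.7 against 80.1 and 80.5, and Trim28 encodes the corepressor of zinc finger proteins. Ranked by −log10 q in place of the fold, the gap at Car11/Dbp was 5.51 and that at Trim28/Gm31649 4.58 points, under the 10 required, while the other 9 named regions stayed above it.

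**Figure D5:**
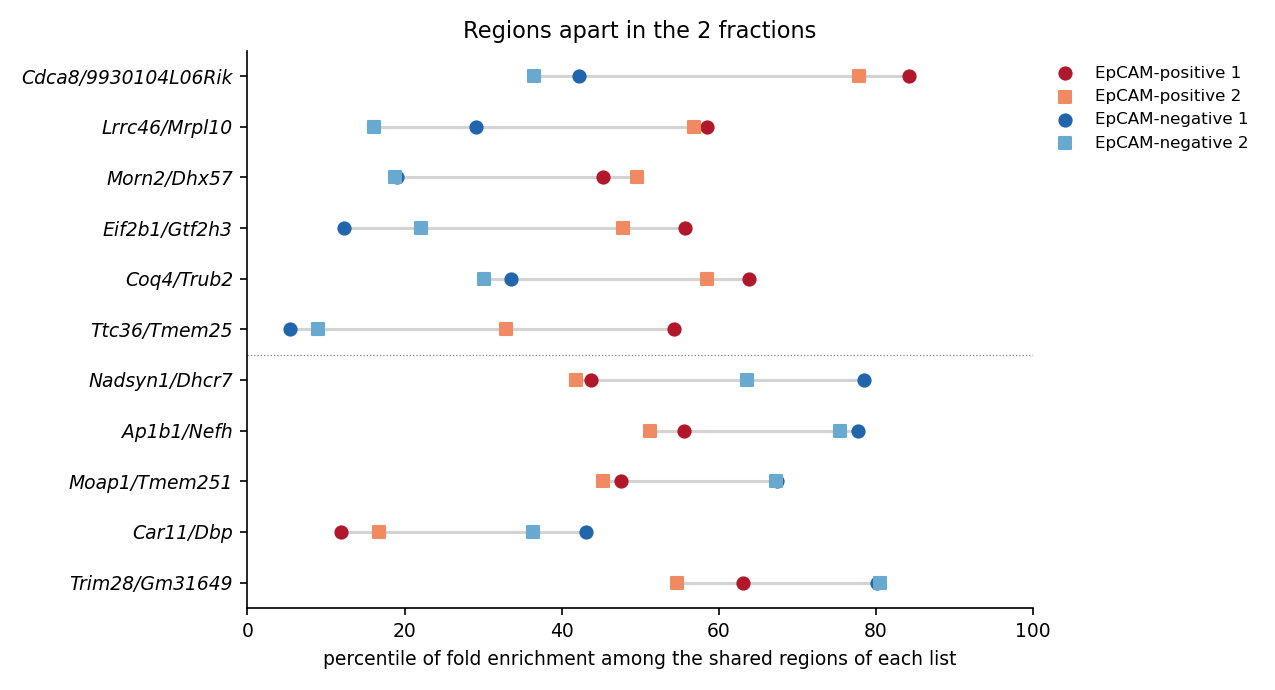
Percentile of fold enrichment among the shared regions, with 1 point per library, for 6 regions higher (above the dotted line) and 5 lower (below it) in the EpCAM-positive fraction, from the 6 with the largest gap in each direction. Red and blue points do not overlap in any row, because the regions were picked for that. The gap between the nearest points is 35.7 points at Cdca8/9930104L06Rik and 17.0 at Trim28/Gm31649.

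Among the listed groups few regions differed, and the counts stand against the 5.86% higher and 6.09% lower over all shared regions. The Lat/Spns1 region had percentiles of 61.8 and 43.2 in the EpCAM-positive lists, against 76.6 and 73.8 in the EpCAM-negative ones, with a fold of 10.8 and 9.26 against 13.2 and 12.9. It counted as lower by a gap of 12.0 points. Mitochondrial ribosomal proteins had 5 regions higher and 1 lower out of 38, and no test of that split was made. The higher ones, beside Mrpl10, were those of Mrpl13/Mtbp, Atat1/Mrps18b, Mrpl21/Ighmbp2 and Cyb5rl/Mrpl37, with gaps of 10.5 to 13.4 points, and the lower one was Mrpl47/Ndufb5 with 10.4. These 5 were named after their values had been seen. Respiratory chain genes had 0 higher and 2 lower of 42 regions, ribosomal proteins 0 and 2 of 21, Zfp genes 2 and 3 of 30, and DNA replication genes 0 and 1 of 12. These groups hold too few regions to be read against those shares. No region of the lists of known head-to-head pairs (14), DNA repair (26), splicing (19), antigen processing (4), proteasome (12) or histones (17) met the gap in either direction. For the known pairs, whose median of the mean percentile was 85.0, the scale leaves less room for such a gap.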

How the data were processed

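Open chromatin was measured by ATAC-seq in 4 libraries of DN3 thymocytes, 2 per EpCAM fraction. Per the submitters' processing notes, the tools were MACS3, Bowtie2, Trimmomatic, Trim Galore, FastQC, Picard, SAMtools, deepTools and bedtools, and the build was mm10 (GRCm38). In the sources used here, no versions, roles or settings were given. As each library has its own peak list, the authors called peaks without pooling. A deposited list holds a display score, a fold enrichment (a ratio), −log10 p and −log10 q for every peak, and its summit. The score and −log10 p were not used. Read totals are not known, so depth sets no interval here.

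Regions were built and described with Python 3.11.15, pandas 2.3.3, NumPy 2.4.6, SciPy 1.17.1 and Matplotlib 3.10.9. Genes were the protein-coding genes of RefSeq GRCm38.p6, and strand came from the RefSeq promoter table. Where a gene had no promoter entry, its arrangement was not classified. Medians per library were compared by exact sign-flip or permutation tests, two-sided. Merging and rank calls were tested on simulated data with little noise between libraries. That test cannot show how often spread between libraries alone meets the gap. Named regions were the 5 strongest per arrangement (by the lowest percentile of the 4 lists), the 3 widest and narrowest, those with the most genes, the 6 with the largest gap per direction, the members of the known-pair, T cell receptor and double-negative lists, up to 3 per other list, and the neighbours of the 1000 bp limit. A few regions that this rule takes in are not reported here. Sequences were those of head-to-head pairs with starts under 250 bases apart, known pairs first, then the strongest. The 1367 regions and the 19 gene lists were chosen with earlier results of these data known. Alternatives were the window, the overlap for merging, a −log10 q of 5, the summit's choice, gene models left out, ranking by −log10 q, other gaps, the promoter window, and leaving out each library.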

Additional observations from a re-analysis of the deposited data

How the results depend on the processing

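The number of regions stayed within 1.5 times of 1367 under every alternative, from 1046 with a window of 500 bp to 1851 with 2000 bp. With these windows the head-to-head share was 83.4% and 63.7%, the head-to-tail share 13.3% and 29.3%, the width ratio to single gene ends 1.12 and 1.07 (1.10 as reported), and the median percentile 73.5 and 66.9 (70.4 as reported). At 2000 bp, 69 regions were lower in the EpCAM-positive fraction (3.73%, against 6.09% of all shared regions). A −log10 q of at least 5 gave a median percentile of 67.9. Ranking by −log10 q gave 73.7, and 19 lower regions in place of 37 (1.39%, against 5.56% of all shared regions). The widest peak of each list gave a width ratio of 1.16. A gap of 5 points gave 112 higher and 94 lower regions (8.19% and 6.88%, against 10.4% and 11.3% of all shared regions), and one of 20 points 16 and 0 (against 1.65% and 1.76%). The ETS letters were in 33.8% of head-to-head starts when 150 bases were searched, against 33.5% of head-to-tail and 23.1% of single starts. Counted per region, an alternative added after seeing the data, they were in 54.4%, against 31.2%. Regions with 2 starts have 2 windows to match in.

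Leaving out each library in turn gave 126 to 177 higher and 111 to 144 lower regions, because fewer libraries have to stand apart (9.06% to 12.7% and 7.99% to 10.4% of the regions, against 12.9% to 14.4% and 12.9% to 14.5% of all shared regions). The width ratio was then 1.11 to 1.12 and the median percentile 71.0 to 71.97. The 11 named regions kept their direction in each of these settings. They were picked by the smallest gap over all 4 libraries. Leaving a library out could thus hardly turn their direction, and it is no check on them. They also kept it with merging at 100 bp and in the ranking by −log10 q, where Car11/Dbp and Trim28/Gm31649 fell under 10 points. At a −log10 q of at least 5, Ttc36/Tmem25 was not a shared region, and the other 10 kept theirs. With a replicate block, in which libraries were compared only with that of the same number, 96 regions were higher and 71 lower (7.02% and 5.19%, against 9.42% and 9.40% of all shared regions). The differences between numbers 1 and 2 in the 2 fractions had a correlation of 0.116 over the regions, and 2 pairs cannot show that the numbers pair the samples. Read depth and the caller's settings are unknown, 325 regions lack a strand, and 2 libraries per fraction allow no test of a single region.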

Other observations

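The regions were spread over all autosomes and the X chromosome. Chromosomes 7, 11 and 2 held the most, with 134, 130 and 121 regions. The X chromosome held 29 and chromosome 18 held 19. Of the 1651 merged regions at the ends of 2 or more genes, 25 (1.51%) were called in both EpCAM-positive lists alone and 7 (0.424%) in both EpCAM-negative lists alone. At 1 gene these shares were 3.61% and 0.460%, away from gene ends 4.90% and 2.30%, and over all 36224 merged regions 4.4% and 1.72%. The percentile of a region differed between the 2 EpCAM-positive libraries by a median of 6.76 points at head-to-head and 17.5 points at the 6 tail-to-tail regions, and between the 2 EpCAM-negative libraries by 6.48 and 11.2 points. Over all shared regions these medians were 8.82 and 8.96 points.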
